A study of Homo sapiens with 34 samples.

Results

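The cells described here were H1 human embryonic stem cells (ESCs), an established line, that carried a lentiviral shRNA against ZEB2 and were differentiated toward cardiomyocytes, compared between day 6 and day 10. They were chosen by line and day alone: the ZEB2 shRNA libraries of day 6 (replicates 1 and 2) and of day 10 (replicates 3 and 4), which are 4 of the 34 libraries of the series. Day 10 replicates 1 and 2 were left out because their columns hold more rows than the table has transcript accessions. All lines received the GSK3β inhibitor CHIR99021 at the start and the WNT inhibitor IWP2 afterwards, and insulin was added at day 7, which lies between the compared days. Every library analysed here came from puromycin-selected cells with 1 shRNA vector per gene, chosen by the study from several by its knockdown, and the control, named WT as in the labels, was the same line with a vector that was empty or aimed at GFP. WT cells at day 6 and day 10 and NKX2-5 shRNA cells at day 6 and day 10, each with 2 libraries per day, served for comparison. Total RNA was sequenced, and the deposited values are read counts per RefSeq transcript. The 4 libraries hold between 13807473 and 61514547 counts. No label says that the 2 libraries of a day came from separate cultures, so the p-values measure the spread between these libraries, which may be technical. In ZEB2 shRNA and WT cells the days also carry different replicate numbers, so that day, insulin and any difference in handling between the replicate sets cannot be told apart. In NKX2-5 shRNA cells both days carry replicate numbers 1 and 2, and day and insulin cannot be told apart.

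ZEB2 is a zinc finger and homeodomain protein that binds paired E-box sequences and is best known as a repressor of epithelial genes such as CDH1 (E-cadherin) during epithelial-mesenchymal transition. In the directed differentiation of ESCs, mesoderm forms first, cardiac progenitors follow, and between progenitor and contracting cardiomyocyte the cells switch on sarcomere, calcium handling and ion channel genes while cell division slows. Cultures of this kind can also hold endoderm, fibroblast-like, endothelial and epithelial cells, and the early liver and yolk sac both secrete alpha-fetoprotein and apolipoproteins.

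ZEB2 itself (chromosome 2, 145121931 to 145278624 of hg19/GRCh37, reverse strand) was at 54.6 and 57.1 CPM at day 6 and 54.96 and 54.95 CPM at day 10 in ZEB2 shRNA cells, where CPM is the count scaled to the library total, adjusted by TMM factors. The day 6 and day 10 libraries overlapped in range (log2 fold change -0.04, SE 0.17, edgeR adjusted p = 0.87). In WT cells the same row was at 96.8 and 94.1 CPM at day 6 and 117 and 105 CPM at day 10, so the knockdown libraries lay below all 4 WT libraries on both days. The fitted change of ZEB2 turned to 0.42 (edgeR adjusted p = 0.028) when a trend with GC content was removed and to 0.14 (adjusted p = 0.50) without TMM factors, so it has no settled direction.

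Of 17750 genes tested, 617 (3.48%) were higher and 111 (0.625%) lower at day 10 by at least 8-fold at 1% FDR, the threshold used by the study at this day and referred to as called below. At 5% FDR with no fold threshold 5738 (32.3%) rose and 5499 (31%) fell, and these are the counts given for gene lists. The median log2 fold change of all genes tested was 0.03, and without TMM factors it shifted to 0.20, with 6723 genes rising and 4432 falling. In WT cells 4863 of 17217 genes (28.2%) rose and 5030 (29.2%) fell over the same days. The change in ZEB2 shRNA cells was more positive than the change in WT cells for 1362 of 16889 genes (8.06%) and more negative for 1125 (6.66%) at 5% FDR of the difference itself, and without TMM factors for 1981 and 708. These counts of differences moved when 1 library was left out: without any 1 of the 4 ZEB2 shRNA libraries or WT day 6 replicate 2 they were 679 to 780 more positive and 417 to 609 more negative, and without a WT day 10 library they reached 1876 (without replicate 3) and 1555 (without replicate 4). The percentages are the background against which every list count below is read, and all counts for lists are descriptions with no test of the list.

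Epithelial genes were the group for which ZEB2 is best known. Of 20 tested, 7 rose, 4 fell and 9 did not pass the test between day 6 and day 10 in ZEB2 shRNA cells, with a median log2 fold change of 0.25, so their share of rises (background 32.3%) was near that of all genes. In WT cells 1 rose and 14 fell, with a median of -1.35. The difference between the changes was positive at 5% FDR for 15 of the 20 and negative for 0, against 8.06% and 6.66% of all genes, and the positive count ranged from 10 to 16 when each library was left out in turn. Their change in ZEB2 shRNA cells depended on the GC trend: with it removed 7 rose and 8 fell, with a median of -0.13.

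CDH1 (chromosome 16, 68771195 to 68869440), the adhesion molecule of epithelial junctions, was at 70.97 and 58.99 CPM at day 6 and 188 and 160.5 CPM at day 10 in ZEB2 shRNA cells. Both day 10 libraries lay above both day 6 libraries (log2 fold change 1.40, SE 0.11, edgeR adjusted p = 2.5e-07). In WT cells CDH1 was at 26.6 and 39.2 CPM at day 6 and 27.8 and 10.97 CPM at day 10, lower than in any ZEB2 shRNA library (difference of the log2 changes 2.11, SE 0.43, edgeR adjusted p = 0.0098), and that difference was 2.98 without WT day 10 replicate 3. At day 0 and day 2 it had been at 242 and 228 CPM and at 246 and 236 CPM, so that its day 6 level was the lowest of the 4 days in this line. CLDN4, a claudin of tight junctions, rose in ZEB2 shRNA cells from 18.1 and 21.5 CPM at day 6 to 53.1 and 45.1 CPM at day 10 (log2 fold change 1.31, SE 0.15, edgeR adjusted p = 4.9e-06). GRHL2, a transcription factor of epithelial identity, was at 58.1 and 57.5 CPM at day 6 and 86.8 and 64.7 CPM at day 10. Its libraries did not overlap, but the rise (log2 fold change 0.38, SE 0.13, edgeR adjusted p = 0.019) no longer passed the test without day 10 replicate 3 (0.13, adjusted p = 0.43), day 6 replicate 1 (0.36, adjusted p = 0.095) or day 6 replicate 2 (0.36, adjusted p = 0.086). In WT cells GRHL2 was at 18.1 and 22.7 CPM at day 6 and 1.91 and 3.01 CPM at day 10, and the changes differed strongly (difference of the log2 changes 3.49, SE 0.31, edgeR adjusted p = 0.00018). RAB25, a small GTPase of epithelial membrane recycling, was at 34.8 and 39.7 CPM at day 6 and 44.6 and 43.2 CPM at day 10 in ZEB2 shRNA cells and at 16.1 and 23.4 CPM at day 6 and 4.43 and 2.904 CPM at day 10 in WT cells (difference of the log2 changes 2.58, SE 0.31, edgeR adjusted p = 0.00065). Some members fell in both lines. KRT8, a keratin of simple epithelia, went from 1010.3 and 1038 CPM at day 6 to 687 and 622 CPM at day 10 in ZEB2 shRNA cells (log2 fold change -0.66, SE 0.10, edgeR adjusted p = 4.3e-05) and from 1219 and 1051 CPM at day 6 to 287 and 243 CPM at day 10 in WT cells, where the fall was larger (difference of the log2 changes 1.42, SE 0.19, edgeR adjusted p = 0.0013). EPCAM, an epithelial adhesion molecule, fell by 0.46 on the log2 scale in ZEB2 shRNA cells (edgeR adjusted p = 0.0015) and by 1.81 in WT cells (adjusted p = 7.5e-05).

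Promoters of 3 epithelial genes, and of NECTIN4 from the genes chosen below for their difference from WT cells, are shown because the E-box CACCTG, read as CAGGTG on the other strand, is the sequence that ZEB proteins are known to bind, in pairs. The window is 250 bases before to 50 bases after the start of the RefSeq gene on GRCh38.p14, written 5′ to 3′ along the gene, with the motif of either strand in capitals. Sequences were at hand for 9 of the 20 epithelial genes, and 5 of these (55.6%) hold at least 1 motif, namely RAB25, CRB3, OCLN, CLDN3 and CLDN6. The windows of CLDN4, CLDN7, KRT8 and TJP3 hold none. RAB25 (chr1:156060910-156061209, forward strand) has 1 motif 41 bases upstream of the start and 1 in the transcribed bases. CRB3, a polarity protein of the apical membrane (chr19:6464021-6464320, forward strand), has 5. OCLN, the tight junction protein occludin (chr5:69492297-69492596, forward strand), has 1, at 33 bases upstream. NECTIN4, an adhesion molecule with the most positive difference from WT cells of all named genes (chr1:161089509-161089808, reverse strand), has 1, at 38 bases upstream.
RAB25: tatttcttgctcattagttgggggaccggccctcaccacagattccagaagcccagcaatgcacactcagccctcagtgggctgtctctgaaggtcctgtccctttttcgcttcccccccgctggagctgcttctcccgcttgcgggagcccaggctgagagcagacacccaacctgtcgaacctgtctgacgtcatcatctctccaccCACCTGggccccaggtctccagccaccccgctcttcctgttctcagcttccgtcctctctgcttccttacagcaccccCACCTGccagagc
CRB3: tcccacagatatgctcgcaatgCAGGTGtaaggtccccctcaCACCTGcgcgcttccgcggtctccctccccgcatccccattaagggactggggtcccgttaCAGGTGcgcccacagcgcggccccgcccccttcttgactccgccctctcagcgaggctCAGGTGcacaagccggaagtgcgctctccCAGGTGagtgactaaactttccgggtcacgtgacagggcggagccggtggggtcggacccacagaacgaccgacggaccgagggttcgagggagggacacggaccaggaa
OCLN: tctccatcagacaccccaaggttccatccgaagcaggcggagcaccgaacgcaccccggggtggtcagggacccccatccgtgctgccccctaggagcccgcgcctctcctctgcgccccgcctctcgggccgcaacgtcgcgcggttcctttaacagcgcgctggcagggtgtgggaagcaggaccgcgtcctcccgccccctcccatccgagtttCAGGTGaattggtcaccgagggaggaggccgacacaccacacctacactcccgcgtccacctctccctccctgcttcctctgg
NECTIN4: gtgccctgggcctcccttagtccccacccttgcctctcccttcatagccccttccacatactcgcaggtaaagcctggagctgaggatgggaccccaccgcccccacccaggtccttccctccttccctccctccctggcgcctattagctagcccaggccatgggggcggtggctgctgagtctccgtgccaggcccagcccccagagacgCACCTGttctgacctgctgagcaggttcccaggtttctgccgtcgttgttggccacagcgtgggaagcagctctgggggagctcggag

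Over all 27305 promoters of the same length in the table, 20.6% hold the motif on either strand. The share was 19.2% for genes tested in ZEB2 shRNA cells (2560 of 13365 with a promoter), 23.6% for called rises (104 of 440), 31.4% for called falls (22 of 70), 21.8% for genes whose change was more positive than in WT cells (229 of 1050) and 19.4% for those more negative (168 of 865). A match is a description of these letters and not of binding.

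Regulators of the mesenchymal state showed few changes. Of 11 tested, 2 rose and 2 fell, with a median of -0.04. SNAI1, a zinc finger repressor of epithelial genes, rose from 6.34 and 4.203 CPM at day 6 to 10.2 and 12.9 CPM at day 10 (log2 fold change 1.06, SE 0.24, edgeR adjusted p = 0.0017), and PRRX1, a homeobox gene of mesenchyme, rose with a log2 fold change of 2.37 (edgeR adjusted p = 0.00019). ZEB1, the closest relative of ZEB2, was at 34.5 and 28.9 CPM at day 6 and 27.7 and 36.6 CPM at day 10, in ranges that overlapped. With the GC trend removed, 4 of the list rose rather than 2.

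Fibroblast and extracellular matrix genes rose in all but 1 case. Of 21 tested, 20 rose and 1 fell (background 32.3% and 31%), the median log2 fold change was 2.57, and 6 were called higher (background 3.48%). In WT cells 8 rose and 4 fell, with a median of 0.58. The difference from WT was positive at 5% FDR for 15 of 21 and negative for none, and leaving out each library gave 12 to 19. These are bulk samples, in which more cells of a type and more RNA per cell cannot be told apart.

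COL3A1 (chromosome 2, 189839099 to 189877472), a fibrillar collagen of loose connective tissue, was at 89.1 and 93.7 CPM at day 6 and 3128 and 3698 CPM at day 10. The day 10 libraries lay far above those of day 6 (log2 fold change 5.21, SE 0.17, edgeR adjusted p = 8e-11). WT cells had 177 and 335 CPM at day 6 and 639.7 and 241 CPM at day 10 (difference of the log2 changes 4.41, SE 0.54, edgeR adjusted p = 0.00072). COL6A3 (chromosome 2, 238232646 to 238322971), a chain of microfibrillar collagen, rose from 1.86 and 1.03 CPM at day 6 to 206 and 248 CPM at day 10 (log2 fold change 7.09, SE 0.23, edgeR adjusted p = 8.7e-11). In WT cells it was at 4.33 and 6.25 CPM at day 6 and 24.4 and 8.82 CPM at day 10, with both WT day 10 libraries below both ZEB2 shRNA ones (difference of the log2 changes 5.42, SE 0.55, edgeR adjusted p = 0.00034). DCN, the small proteoglycan decorin that binds collagen fibrils, was at 0.483 and 0.147 CPM at day 6 and 104 and 134 CPM at day 10 (log2 fold change 8.16, SE 0.28, edgeR adjusted p = 1.6e-09). WT cells had 0.433 and 0.962 CPM at day 6 and 5.05 and 0.4302 CPM at day 10 of DCN, and the 2 WT day 10 libraries differ from each other (difference of the log2 changes 6.06, SE 0.97, edgeR adjusted p = 0.0028). POSTN, the matrix protein periostin, was at 0.799 and 0.5899 CPM at day 6 and 124 and 189 CPM at day 10 (log2 fold change 7.68, SE 0.28, edgeR adjusted p = 2.1e-10) and in WT cells at 0.5201 and 0.577 CPM at day 6 and 12.3 and 5.38 CPM at day 10 (difference of the log2 changes 3.63, SE 0.64, edgeR adjusted p = 0.0046). Without WT day 6 replicate 2 neither difference passed the test any longer, at 5.30 (adjusted p = 0.082) for DCN and 3.56 (adjusted p = 0.057) for POSTN. Without WT day 10 replicate 3 the differences were larger, at 5.28 for COL3A1, 6.37 for COL6A3, 8.95 for DCN and 4.40 for POSTN. Without ZEB2 shRNA day 6 replicate 1 the change itself was 7.73 for COL6A3 and 9.59 for DCN.

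COL1A1, the main collagen of connective tissue, rose with a log2 fold change of 2.88 (edgeR adjusted p = 2.3e-07), from 192 and 139.5 CPM at day 6 to 1238 and 1227 CPM at day 10, and by more than in WT cells (difference of the log2 changes 2.32, SE 0.24, edgeR adjusted p = 0.00037). FN1, the matrix glycoprotein fibronectin, went from 3152 and 3138 CPM at day 6 to 7921 and 7717 CPM at day 10 (log2 fold change 1.30, SE 0.11, edgeR adjusted p = 2.5e-07), while WT cells stood at 3221 and 3293 CPM at day 6 and 3573 and 3711 CPM at day 10 (difference of the log2 changes 1.12, SE 0.17, edgeR adjusted p = 0.0021). The PDGF receptors moved apart. PDGFRB, the receptor of pericytes and fibroblasts, rose from 7.31 and 5.83 CPM at day 6 to 43.8 and 43.3 CPM at day 10 (log2 fold change 2.69, SE 0.24, edgeR adjusted p = 6.4e-07), whereas PDGFRA, which early mesoderm expresses, was the member that fell, from 644 and 642 CPM at day 6 to 226 and 318 CPM at day 10 (log2 fold change -1.25, SE 0.13, edgeR adjusted p = 2.2e-06).

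**Figure D1:**
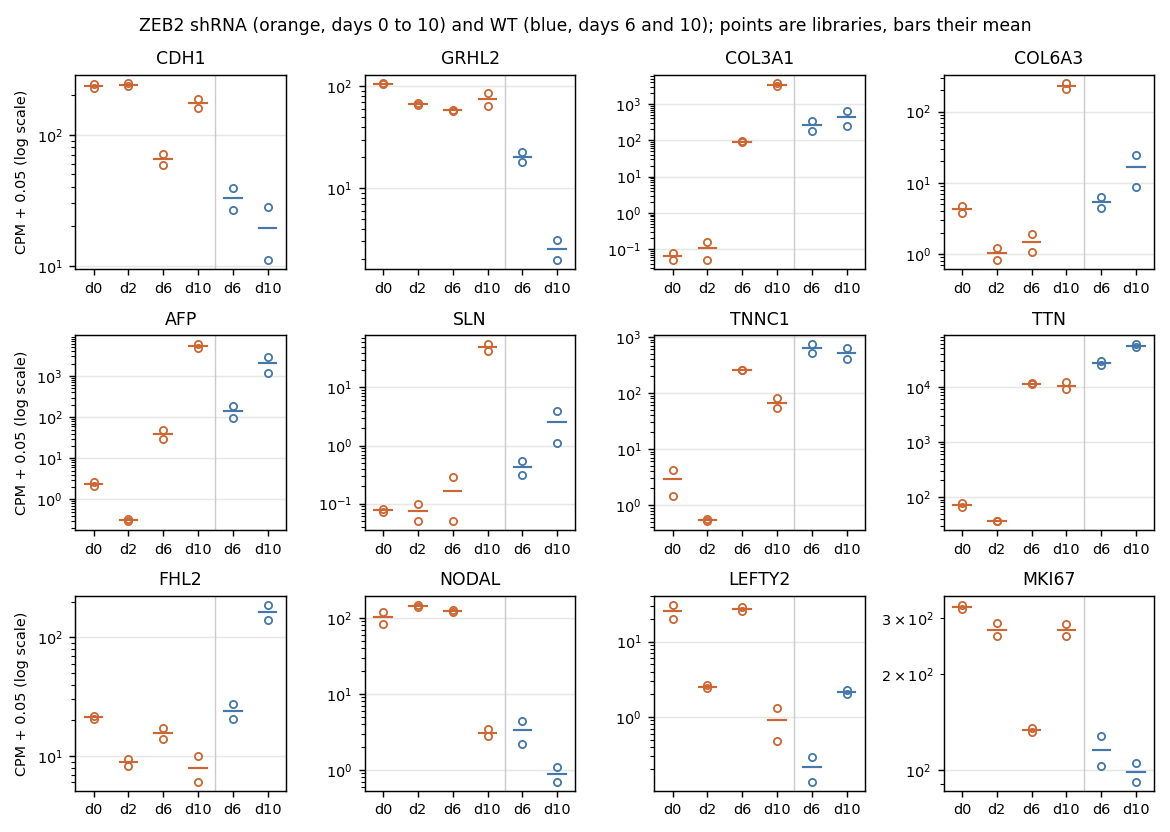
CPM plus 0.05, on a log axis, of 12 genes described in the text, 1 panel per gene, in ZEB2 shRNA cells at days 0, 2, 6 and 10 (orange) and WT cells at days 6 and 10 (blue). Points are single libraries and bars are means. The ZEB2 shRNA day 10 points of COL3A1, COL6A3, AFP and SLN lie above all other points in their panels, and those of TNNC1 and FHL2 lie below the WT points.

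Basement membrane genes, whose products form the sheet under epithelia and around muscle cells, rose in 12 of 13 cases with a median of 1.17, and in WT cells 9 rose with a median of 1.08. HSPG2, the proteoglycan perlecan, rose from 136 and 92.5 CPM at day 6 to 636 and 472 CPM at day 10 (log2 fold change 2.26, SE 0.21, edgeR adjusted p = 6.6e-07). LAMA1, the laminin chain of early embryonic basement membranes, rose in ZEB2 shRNA cells with a log2 fold change of 0.59 (edgeR adjusted p = 0.00022) and fell in WT cells by 0.78 on that scale (adjusted p = 7e-05). Among 11 TGF-beta pathway genes, 9 rose and 1 fell with a median of 1.36, and the WT median was 1.37. TGFBI, a secreted protein that TGF-beta induces, had the largest rise of this list, from 11.8 and 9.81 CPM at day 6 to 373 and 457 CPM at day 10 (log2 fold change 5.22, SE 0.14, edgeR adjusted p = 1.3e-11). Of 11 smooth muscle genes 6 rose and 2 fell, with a median of 0.59 against -0.57 in WT cells. Compared with WT cells, the change was more positive at 5% FDR for 5 of them, a count that fell to between 1 and 3 without any 1 of the ZEB2 shRNA libraries. Among 12 epicardial and mesothelial genes, which line the heart and body cavity, 6 rose and 2 fell, with a median of 0.45. The epicardial and mesothelial median has no settled direction, since it was -0.09 without day 10 replicate 4, 0.00 without day 6 replicate 2, 0.13 without day 10 replicate 3 and 1.05 without day 6 replicate 1.

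Hepatic and yolk sac secretory genes all rose: 16 of 16 tested passed upward and 12 were called higher (background 3.48%), with a median log2 fold change of 4.09. Their summed level was 676 and 1032 CPM at day 6 and 12295 and 14417 CPM at day 10. In WT cells 12 of 16 rose with a median of 2.98, to sums of 6066 and 2295 CPM. AFP (chromosome 4, 74296855 to 74321891), alpha-fetoprotein, the main serum protein of fetal liver and yolk sac, was at 28.6 and 47.6 CPM at day 6 and 4839.6 and 5935 CPM at day 10. The day 10 libraries lay far above those of day 6 (log2 fold change 7.17, SE 0.23, edgeR adjusted p = 7.4e-11). WT cells had 94.9 and 188 CPM at day 6 and 2938 and 1202 CPM at day 10, and the WT day 10 libraries differ by more than those of the knockdown (difference of the log2 changes 3.26, SE 0.57, edgeR adjusted p = 0.0046), so that the difference was 4.05 without WT day 10 replicate 3. APOA4 (chromosome 11, 116691416 to 116694020), an apolipoprotein of intestine and liver, went from 0.3496 and 0.221 CPM at day 6 to 846 and 962 CPM at day 10 (log2 fold change 11.42, SE 0.19, edgeR adjusted p = 9.5e-14). SERPINA1, the protease inhibitor alpha-1-antitrypsin, went from 1.13 and 1.55 CPM at day 6 to 504 and 576 CPM at day 10 (log2 fold change 8.76, SE 0.18, edgeR adjusted p = 9.7e-13). TTR, the thyroid hormone carrier transthyretin, rose from 122 and 168 CPM at day 6 to 958 and 1208 CPM at day 10 (log2 fold change 2.89, SE 0.17, edgeR adjusted p = 2.2e-08). FGG, a fibrinogen chain, rose with a log2 fold change of 7.74 (edgeR adjusted p = 8.7e-11) and APOB, the core protein of low-density lipoprotein, with one of 3.44 (adjusted p = 2.3e-09). ALB, albumin, which marks more mature hepatocytes, was at 0.949 and 1.25 CPM at day 6 and 11.96 and 10.9 CPM at day 10 (log2 fold change 3.43, SE 0.33, edgeR adjusted p = 1.9e-06).

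Relative to WT, the change was more positive at 5% FDR for 6 of the 16 genes. That count rests on single libraries: it was 14 without WT day 10 replicate 3, and 1 without any 1 of the 4 ZEB2 shRNA libraries or without WT day 6 replicate 2. Few transcription factors of endoderm rose. Of 10 tested, 2 rose and 5 fell, with a median of -0.44 against -2.36 in WT cells, where 9 of 11 fell. CDX2, a homeobox gene of intestine, trophoblast and posterior mesoderm, rose from 0.1998 and 0.295 CPM at day 6 to 15.7 and 14.6 CPM at day 10 (log2 fold change 6.06, SE 0.36, edgeR adjusted p = 2.2e-08). HHEX, a homeobox gene of early liver and endothelium, fell from 55.1 and 56.6 CPM at day 6 to 9.92 and 12.03 CPM at day 10 (log2 fold change -2.36, SE 0.18, edgeR adjusted p = 1.2e-07). Against the WT change, it was more positive for 8 of 11, and for 1 to 3 without any 1 of the ZEB2 shRNA libraries or WT day 6 replicate 2.

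The labelled end point of the protocol is the cardiomyocyte. Its marker TNNT2, cardiac troponin T, was at 404 and 376 CPM at day 6 and 433 and 294 CPM at day 10 in ZEB2 shRNA cells, in ranges that overlapped. The thin filament genes, TNNT2 among them, summed to 3466 and 3054 CPM at day 10, against 9979 and 7914 CPM in WT cells. Thick filament genes, a list that includes titin (TTN), summed to 17697 and 12681 CPM at day 10, against 75888 and 67378 CPM in WT cells. Most of each sum was TTN, whose values follow. Of 10 thick filament genes tested, 5 rose and 1 fell with a median of 0.42, while in WT cells 8 rose and 0 fell with a median of 1.59. Without day 10 replicate 3 of the knockdown, 3 rose and 5 fell. TTN (chromosome 2, 179390716 to 179695529), the giant spring protein titin, was at 11801 and 11129 CPM at day 6 and 12043 and 9001 CPM at day 10 (log2 fold change -0.14, SE 0.14, edgeR adjusted p = 0.39). Its libraries overlapped, and the value became -0.38 (adjusted p = 0.039) without day 10 replicate 3 and 0.03 (adjusted p = 0.87) without day 10 replicate 4. WT cells had 29938 and 24730.4 CPM at day 6 and 59579.5 and 53431 CPM at day 10 of TTN, and there the rise passed the test, with a difference between the lines of -1.20 (edgeR adjusted p = 0.0095). MYH6, the atrial myosin heavy chain, was at 2147 and 1858 CPM at day 6 and 2589 and 1540.5 CPM at day 10 (log2 fold change 0.03, SE 0.17, edgeR adjusted p = 0.89), with the sign set by which day 10 library was kept (-0.41, adjusted p = 0.015, without replicate 3, and 0.33, adjusted p = 0.037, without replicate 4).

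MYBPC3, myosin binding protein C, rose from 140.2 and 103 CPM at day 6 to 546 and 309 CPM at day 10 (log2 fold change 1.79, SE 0.21, edgeR adjusted p = 9.5e-06), and MYL3, the ventricular essential light chain, from 21.1 and 22.6 CPM at day 6 to 149 and 96.9 CPM at day 10 (log2 fold change 2.49, SE 0.21, edgeR adjusted p = 3.6e-07). MYL4, the atrial light chain, fell from 476 and 459.8 CPM at day 6 to 252 and 194 CPM at day 10 (log2 fold change -1.08, SE 0.21, edgeR adjusted p = 0.00054), although DESeq2 gave it an adjusted p of 0.13. MYH7B, a slow-type myosin heavy chain, was the thick filament gene called higher, from 0.483 and 0.5899 CPM at day 6 to 65.1 and 24.4 CPM at day 10 (log2 fold change 6.44, SE 0.47, edgeR adjusted p = 1.1e-07), and its value was 5.54 without day 10 replicate 3. Among 11 thin filament genes 2 rose and 6 fell, with a median of -0.47 against 0.40 in WT cells. ACTC1 (chromosome 15, 35082308 to 35087790), cardiac actin, fell from 1212 and 1167 CPM at day 6 to 356 and 229 CPM at day 10 (log2 fold change -2.04, SE 0.17, edgeR adjusted p = 3.5e-07). In WT cells ACTC1 was at 2033 and 1696 CPM at day 6 and 1258 and 1241 CPM at day 10, so that the WT libraries stayed above those of the knockdown at day 10 (difference of the log2 changes -1.47, SE 0.27, edgeR adjusted p = 0.0051). TNNC1, troponin C of heart and slow muscle, fell from 258 and 261 CPM at day 6 to 81.2 and 54.05 CPM at day 10 (log2 fold change -1.95, SE 0.29, edgeR adjusted p = 4.5e-05). WT cells held 743 and 522 CPM at day 6 and 629 and 409 CPM at day 10 of TNNC1 (difference of the log2 changes -1.68, SE 0.34, edgeR adjusted p = 0.0091), and in 1 fit of all libraries this difference was -1.66 with an adjusted p of 0.073. ACTN2, the alpha-actinin of the Z-disc, rose with a log2 fold change of 1.95 (edgeR adjusted p = 1.3e-06), and ACTA1, skeletal actin, with one of 1.72 (adjusted p = 2e-06). The difference from WT was negative at 5% FDR for 3 of 10 thick filament genes (8 without ZEB2 shRNA day 10 replicate 3 and 1 without replicate 4) and for 4 of 12 thin filament genes (1 in the fit of all libraries). It was positive for 0 and 1 of them.

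Of 17 Z-disc and muscle stress genes 7 rose and 5 fell (median 0.12), against 11 and 1 in WT cells (median 1.15). FHL2, an adaptor protein of the sarcomere, fell from 17.1 and 13.9 CPM at day 6 to 9.92 and 6.01 CPM at day 10 in ZEB2 shRNA cells (log2 fold change -0.98, SE 0.22, edgeR adjusted p = 0.0015). In WT cells FHL2 went the other way, from 27.5 and 20.5 CPM at day 6 to 187 and 140.0 CPM at day 10 (difference of the log2 changes -3.77, SE 0.34, edgeR adjusted p = 0.00018). ANKRD1, a stretch-responsive nuclear protein of cardiac muscle, fell by 2.75 on the log2 scale (edgeR adjusted p = 7.4e-08) and NEBL, the Z-disc protein nebulette, by 1.60 (adjusted p = 6.7e-07). For ANKRD1 and NEBL the difference from WT cells is given only with the GC trend removed, a setting added after the data were seen. Under that setting it did not pass the test for ANKRD1 (-0.37, edgeR adjusted p = 0.34). For NEBL it did (-1.32, adjusted p = 0.0021). HSPB7, a small heat shock protein of heart muscle, rose from 20.7 and 18.7 CPM at day 6 to 127 and 71.5 CPM at day 10 (log2 fold change 2.31, SE 0.24, edgeR adjusted p = 2.4e-06).

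Calcium handling genes of the sarcoplasmic reticulum split by member. Of 11 tested 4 rose and 2 fell, with a median of 0.08, against 9 rises and a median of 0.69 in WT cells. With the GC trend removed 6 of these sarcoplasmic reticulum calcium handling genes rose, with a median of 0.41. RYR2, the calcium release channel, rose from 283 and 216 CPM at day 6 to 805 and 648 CPM at day 10 (log2 fold change 1.53, SE 0.14, edgeR adjusted p = 5.4e-07). PLN (chromosome 6, 118869459 to 118882879), phospholamban, the brake on the calcium pump, fell from 22.9 and 19.5 CPM at day 6 to 5.41 and 4.61 CPM at day 10 (log2 fold change -2.09, SE 0.23, edgeR adjusted p = 7.4e-06). WT cells held 117 and 119.6 CPM at day 6 and 120.1 and 139 CPM at day 10 of PLN, above the knockdown in every library (difference of the log2 changes -2.24, SE 0.20, edgeR adjusted p = 0.00018). SLN, sarcolipin, the atrial counterpart of phospholamban, moved the opposite way to PLN. SLN was at 0.233 and 0 CPM at day 6 and 42.7 and 55.5 CPM at day 10 (log2 fold change 8.02, SE 0.39, edgeR adjusted p = 3.6e-09) and in WT cells at 0.2600 and 0.481 CPM at day 6 and 3.87 and 1.07 CPM at day 10 (difference of the log2 changes 5.24, SE 0.90, edgeR adjusted p = 0.0041). This difference of SLN was 4.66 (adjusted p = 0.091) without WT day 6 replicate 2 and 6.56 without WT day 10 replicate 3. TRDN, triadin, which anchors the release complex, fell by 1.54 on the log2 scale (adjusted p = 6.3e-07). With the GC trend removed the fall was smaller, at -0.77 for TRDN and -1.28 for PLN. SLC8A1, the sodium-calcium exchanger, was at 250.2 and 226 CPM at day 6 and 246 and 202 CPM at day 10 in ZEB2 shRNA cells, with overlapping libraries, and at 923 and 739 CPM at day 6 and 2490.4 and 1858 CPM at day 10 in WT cells (difference of the log2 changes -1.50, SE 0.25, edgeR adjusted p = 0.0033). The change of SLC8A1 in ZEB2 shRNA cells became a rise of 0.41 (edgeR adjusted p = 0.0076) with the GC trend removed.

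Cardiac ion channel genes rose in 14 of 18 cases and fell in 2, with a median of 1.74, and the WT median was 1.93. The median of the differences between the lines was -0.65. CACNA1C, the L-type calcium channel of the heart, rose from 17.3 and 12.4 CPM at day 6 to 184 and 148 CPM at day 10 (log2 fold change 3.43, SE 0.18, edgeR adjusted p = 7.1e-09). Compared with WT cells, the change was more negative for 6 of the 18 at 5% FDR, and for 2 to 3 of them without ZEB2 shRNA day 6 replicate 1, ZEB2 shRNA day 10 replicate 3 or 4, or either WT day 6 library. Of 10 intercalated disc genes 5 rose and 4 fell (median 0.24), and of 7 natriuretic peptide genes 4 rose and none fell (median 0.57).

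Of 28 cardiac transcription factors tested 8 rose and 8 fell with a median of -0.10, while in WT cells 13 rose and 5 fell with a median of 0.48. The split depends on the scaling, since 11 cardiac transcription factors rose and 5 fell without TMM factors (median 0.08) and 6 rose and 13 fell with the GC trend removed (median -0.24). TBX5, a T-box factor of atria and left ventricle, rose from 9.82 and 8.92 CPM at day 6 to 28.3 and 32.7 CPM at day 10 (log2 fold change 1.68, SE 0.20, edgeR adjusted p = 7.3e-06). MEF2C, a MADS-box activator of muscle genes, fell from 292 and 242 CPM at day 6 to 88.3 and 81.7 CPM at day 10 (log2 fold change -1.66, SE 0.12, edgeR adjusted p = 1.1e-07), and MYOCD, the coactivator myocardin, fell by 1.51 on the log2 scale (edgeR adjusted p = 5.3e-07). The difference from WT cells is given for MEF2C and MYOCD only with the GC trend removed, which was added after the data were seen. Under that setting it did not pass the test for MEF2C (-0.56, edgeR adjusted p = 0.14). For MYOCD it did (-0.97, adjusted p = 0.032). IRX4, a homeobox gene of ventricular muscle, was at 4.53 and 4.94 CPM at day 6 and 17.2 and 12.5 CPM at day 10 (log2 fold change 1.66, SE 0.25, edgeR adjusted p = 5.3e-05), and the value was 0.83 with the GC trend removed. Its WT libraries reached a higher level, with 2.47 and 2.62 CPM at day 6 and 37.1 and 78.6 CPM at day 10 (difference of the log2 changes -2.85, SE 0.46, edgeR adjusted p = 0.0031, and -2.21 without WT day 10 replicate 4). TBX20, a T-box factor of the heart, was at 159 and 138 CPM at day 6 and 199.6 and 146 CPM at day 10 in ZEB2 shRNA cells and at 266 and 196 CPM at day 6 and 641 and 719 CPM at day 10 in WT cells (difference of the log2 changes -1.37, SE 0.26, edgeR adjusted p = 0.0068). The difference was negative for 6 and positive for 3 of the 28. With the GC trend removed the difference was negative for 11, as it was without WT day 10 replicate 3, whereas it was negative for 2 without ZEB2 shRNA day 10 replicate 4 or day 6 replicate 1 and for 3 without WT day 6 replicate 2.

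**Figure D2:**
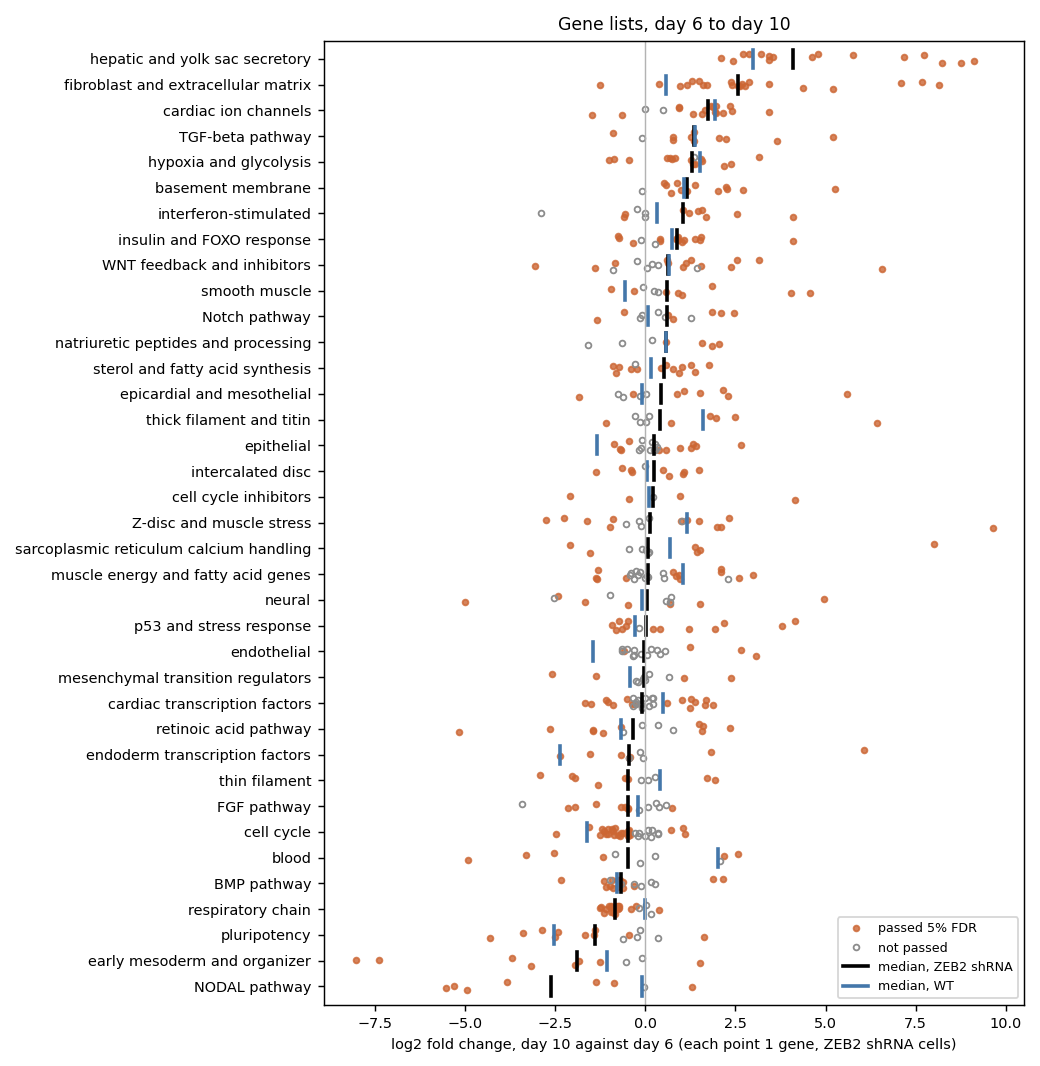
Log2 fold change from day 6 to day 10 in ZEB2 shRNA cells of each tested gene of each list, 1 row per list, with filled points for genes that passed 5% FDR and open points for those that did not. Black bars are the list medians in ZEB2 shRNA cells and blue bars those in WT cells, and no error is drawn because members are not replicates. The hepatic list has the largest median in ZEB2 shRNA cells (4.09) and the NODAL list the lowest (-2.60).

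Respiratory chain genes, which encode subunits of the mitochondrial complexes, fell in 18 of 22 cases and rose in 1 (background 31% and 32.3%), with a median of -0.83. In WT cells 3 rose and 2 fell, with a median of -0.02. NDUFB5, a subunit of complex I, fell from 140.3 and 143 CPM at day 6 to 54.99 and 64.7 CPM at day 10 (log2 fold change -1.26, SE 0.12, edgeR adjusted p = 7.3e-07). COX5B, a subunit of cytochrome c oxidase, fell from 275 and 314 CPM at day 6 to 136 and 119.9 CPM at day 10 (log2 fold change -1.21, SE 0.11, edgeR adjusted p = 9.2e-07), and ATP5F1B, the catalytic subunit of ATP synthase, by 0.77 on the log2 scale (edgeR adjusted p = 6.7e-06). UQCRC2, a core subunit of complex III, fell from 372 and 349.8 CPM at day 6 to 196 and 213 CPM at day 10 (log2 fold change -0.84, SE 0.09, edgeR adjusted p = 3.7e-06), while WT cells had 465 and 366 CPM at day 6 and 511 and 427 CPM at day 10 (difference of the log2 changes -1.03, SE 0.21, edgeR adjusted p = 0.0093). ATP5MC1, a chain of the ATP synthase ring, fell by 0.94 (adjusted p = 1.8e-05) and differed from WT cells by -1.26 on the log2 scale (adjusted p = 0.0073). Relative to WT, the change was more negative at 5% FDR for 10 of 22, and for 18 without WT day 10 replicate 4 but 4 or 5 without any 1 of the ZEB2 shRNA libraries or WT day 6 replicate 2.

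Of 24 muscle energy and fatty acid genes 8 rose and 4 fell in ZEB2 shRNA cells (median 0.07), against 20 and 2 in WT cells (median 1.04). PPARGC1A, the coactivator of mitochondrial biogenesis, was at 154 and 136 CPM at day 6 and 111 and 93.3 CPM at day 10 in ZEB2 shRNA cells and at 220.1 and 173 CPM at day 6 and 507 and 363 CPM at day 10 in WT cells (difference of the log2 changes -1.68, SE 0.25, edgeR adjusted p = 0.0022). ENO3, muscle enolase, was at 97.2 and 84.7 CPM at day 6 and 92.9 and 72.05 CPM at day 10 and in WT cells at 189.9 and 153 CPM at day 6 and 394 and 365 CPM at day 10 (difference of the log2 changes -1.32, SE 0.22, edgeR adjusted p = 0.0038). The difference was negative for 8 of 24, and for 4 or 5 without ZEB2 shRNA day 6 replicate 1, ZEB2 shRNA day 10 replicate 4 or WT day 6 replicate 2. Hypoxia and glycolysis genes mostly rose in both lines. Of 16 tested 12 rose and 3 fell in ZEB2 shRNA cells (median 1.30, WT median 1.53). SLC2A1, the glucose transporter GLUT1, rose from 52.1 and 52.4 CPM at day 6 to 481 and 466 CPM at day 10 (log2 fold change 3.17, SE 0.16, edgeR adjusted p = 6.5e-09), and LDHA, lactate dehydrogenase A, from 109 and 138 CPM at day 6 to 519 and 614 CPM at day 10 (log2 fold change 2.19, SE 0.13, edgeR adjusted p = 2.1e-08). Among 17 insulin and FOXO response genes 12 rose and 3 fell (median 0.88, WT median 0.75). IGF2 (chromosome 11, 2150342 to 2179621), the fetal growth factor, rose from 126 and 143 CPM at day 6 to 2384 and 2241 CPM at day 10 (log2 fold change 4.10, SE 0.11, edgeR adjusted p = 1.3e-11). In WT cells IGF2 went from 132 and 169 CPM at day 6 to 516 and 462 CPM at day 10, a smaller rise (difference of the log2 changes 2.38, SE 0.20, edgeR adjusted p = 0.00015). Of 14 sterol and fatty acid synthesis genes 8 rose and 5 fell (median 0.52).

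Cell cycle genes fell in both lines, and less in ZEB2 shRNA cells. Of 33 tested 21 fell and 3 rose, with a median of -0.49, while in WT cells 29 fell and 1 rose, with a median of -1.62. The difference was positive at 5% FDR for 21 of 33 and negative for none (background 8.06% and 6.66%), and leaving out each library gave 14 to 24. Without TMM factors 8 of the 33 rose in ZEB2 shRNA cells. MKI67, the proliferation antigen Ki-67, rose from 135 and 131 CPM at day 6 to 264 and 288 CPM at day 10 (log2 fold change 1.04, SE 0.09, edgeR adjusted p = 6.8e-07). Its day 10 level came back to that of day 2, 289 and 263 CPM. In WT cells it was at 103 and 128 CPM at day 6 and 105 and 91.6 CPM at day 10 (difference of the log2 changes 1.25, SE 0.18, edgeR adjusted p = 0.0019). TOP2A, the topoisomerase of dividing cells, went from 642 and 665 CPM at day 6 to 434 and 508 CPM at day 10 (log2 fold change -0.49, SE 0.11, edgeR adjusted p = 0.0018), a fall that became -0.03 (adjusted p = 0.77) with the GC trend removed, and in WT cells from 666 and 672 CPM at day 6 to 228 and 169 CPM at day 10 (difference of the log2 changes 1.25, SE 0.21, edgeR adjusted p = 0.0038). PCNA, the replication clamp, fell from 143 and 144 CPM at day 6 to 49.3 and 48.7 CPM at day 10 (log2 fold change -1.56, SE 0.12, edgeR adjusted p = 1.6e-07) and CCNE2, cyclin E2, by 2.46 on the log2 scale (edgeR adjusted p = 4.2e-07), whereas TYMS, thymidylate synthase, rose with a log2 fold change of 1.11 (adjusted p = 5.1e-05). CDKN1A, the cyclin-dependent kinase inhibitor p21, rose from 2.11 and 4.28 CPM at day 6 to 59.2 and 43.3 CPM at day 10 (log2 fold change 4.15, SE 0.34, edgeR adjusted p = 2.5e-07, and 3.54 without day 6 replicate 1). Of 5 cell cycle inhibitors tested 2 rose and 2 fell (median 0.21), and of 14 p53 and stress genes 7 rose and 6 fell (median 0.02).

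NODAL signalling genes included several of the largest falls. Of 8 tested 6 fell and 1 rose, 4 were called lower (background 0.625%), and the median was -2.60 against -0.09 in WT cells. NODAL (chromosome 10, 72191692 to 72207707), a ligand of the TGF-beta family that patterns mesendoderm, fell from 117 and 126 CPM at day 6 to 3.37 and 2.73 CPM at day 10 (log2 fold change -5.31, SE 0.19, edgeR adjusted p = 2.1e-10). In WT cells NODAL was at 2.17 and 4.33 CPM at day 6 and 1.03 and 0.645 CPM at day 10, lower at day 6 than in ZEB2 shRNA cells (difference of the log2 changes -3.43, SE 0.53, edgeR adjusted p = 0.0024). Without WT day 10 replicate 3 that difference was -2.95 (adjusted p = 0.058). LEFTY2 (chromosome 1, 226124298 to 226129083), the secreted inhibitor that NODAL induces, fell from 28.6 and 25.7 CPM at day 6 to 1.27 and 0.427 CPM at day 10 (log2 fold change -4.94, SE 0.34, edgeR adjusted p = 6e-08, and -6.02 without day 10 replicate 3). WT cells went the other way, from 0.0867 and 0.241 CPM at day 6 to 2.22 and 1.94 CPM at day 10 (difference of the log2 changes -8.47, SE 0.66, edgeR adjusted p = 9.3e-05). Earlier, at day 0 and day 2, LEFTY2 had been at 19.7 and 30.5 CPM and at 2.34 and 2.57 CPM in ZEB2 shRNA cells. LEFTY1, its close relative on the same chromosome, fell with a log2 fold change of -3.84 (adjusted p = 1.2e-06), and reads of the pair may be shared. GDF3, a ligand of the same family, fell from 14.02 and 12.3 CPM at day 6 to 0.309 and 0.256 CPM at day 10 (log2 fold change -5.53, SE 0.28, edgeR adjusted p = 6e-09).

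Among 10 early mesoderm and organizer genes 7 fell, 1 rose and 4 were called lower, with a median of -1.89. EOMES, a T-box factor of mesendoderm, fell from 183 and 166 CPM at day 6 to 14.2 and 12.7 CPM at day 10 (log2 fold change -3.71, SE 0.12, edgeR adjusted p = 8.7e-11). Of 14 pluripotency genes 9 fell and 1 rose (median -1.40, WT median -2.54). LIN28A, an RNA-binding protein of stem cells, fell from 1007 and 1087 CPM at day 6 to 192 and 184 CPM at day 10 (log2 fold change -2.49, SE 0.10, edgeR adjusted p = 4.9e-10). L1TD1, an RNA-binding protein of ESCs, fell by 2.85 on the log2 scale (adjusted p = 1.5e-09) and POU5F1, which encodes OCT4, by 4.29 (adjusted p = 2.3e-08).

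Among 19 WNT feedback and inhibitor genes 10 rose and 3 fell (median 0.64). DKK1, a secreted WNT antagonist, rose from 7.33 and 3.097 CPM at day 6 to 53.9 and 48.4 CPM at day 10 (log2 fold change 3.16, SE 0.27, edgeR adjusted p = 3.8e-07, and 4.0 without day 6 replicate 1), and LGR5, the receptor for R-spondins, fell from 77.4 and 65.3 CPM at day 6 to 8.56 and 8.703 CPM at day 10 (log2 fold change -3.06, SE 0.25, edgeR adjusted p = 2.8e-07). BMP pathway genes fell in 12 of 20 cases and rose in 2, with a median of -0.68 against -0.79 in WT cells. The ligand BMP4 fell from 183 and 164 CPM at day 6 to 90.4 and 97.8 CPM at day 10 (log2 fold change -0.90, SE 0.11, edgeR adjusted p = 8.4e-06) and ID1, a direct BMP target, by 0.98 on the log2 scale (adjusted p = 6.5e-06). MSX1, a homeobox target of BMP signalling, moved against the list, from 7.64 and 7.45 CPM at day 6 to 32.4 and 35.96 CPM at day 10 (log2 fold change 2.16, SE 0.21, edgeR adjusted p = 1e-06), while WT cells stood at 3.21 and 6.88 CPM at day 6 and 2.37 and 3.12 CPM at day 10 (difference of the log2 changes 3.08, SE 0.44, edgeR adjusted p = 0.0017, and 2.43 without WT day 6 replicate 2). Of 12 Notch genes 5 rose and 2 fell, and the median of 0.59 became -0.05 with the GC trend removed. FGF pathway genes fell in 7 of 14 cases and rose in 1 (median -0.48), and 4 fell without TMM factors, without day 10 replicate 4 or without day 6 replicate 1. Retinoic acid genes rose in 4 and fell in 6 of 14 cases (median -0.35). ALDH1A1, which makes retinoic acid, rose from 36.2 and 51.3 CPM at day 6 to 125 and 135 CPM at day 10 (log2 fold change 1.57, SE 0.17, edgeR adjusted p = 2.3e-06), and CYP26A1, which degrades it, fell from 11.1 and 9.07 CPM at day 6 to 0.247 and 0.341 CPM at day 10 (log2 fold change -5.17, SE 0.24, edgeR adjusted p = 2.2e-09).

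Markers of other lineages were measured beside these groups. Of 16 endothelial genes 3 rose and 1 fell with a median of -0.03, whereas in WT cells 11 fell and 1 rose with a median of -1.44. With the GC trend removed 5 of them fell in ZEB2 shRNA cells, and the endothelial median was 0.14 without TMM factors. CDH5, the cadherin of endothelial junctions, was at 9.56 and 9.51 CPM at day 6 and 8.74 and 6.66 CPM at day 10 in ZEB2 shRNA cells and at 10.6 and 16.4 CPM at day 6 and 1.96 and 0.645 CPM at day 10 in WT cells (difference of the log2 changes 2.89, SE 0.50, edgeR adjusted p = 0.0044). EMCN, the endothelial sialoprotein endomucin, rose from 5.83 and 5.01 CPM at day 6 to 12.97 and 13.3 CPM at day 10 (log2 fold change 1.25, SE 0.24, edgeR adjusted p = 0.00065), and WT cells had 7.32 and 7.41 CPM at day 6 and 3.402 and 1.398 CPM at day 10 (difference of the log2 changes 2.76, SE 0.43, edgeR adjusted p = 0.0026). Without WT day 10 replicate 3 these differences were 4.05 for CDH5 and 3.63 for EMCN. The difference was positive for 7 of 16 endothelial genes, and for 3 or 4 without ZEB2 shRNA day 6 replicate 1 or 2, ZEB2 shRNA day 10 replicate 4 or WT day 6 replicate 2.

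Of 10 blood genes tested 2 rose and 4 fell, and the defining markers PTPRC and GATA1 were at 0 in all 4 libraries. GYPB, a red cell glycophorin, fell from 14.98 and 13.3 CPM at day 6 to 0.216 and 0.128 CPM at day 10 (log2 fold change -6.31, SE 0.38, edgeR adjusted p = 2.2e-08). GYPE, a near-identical copy of it, fell by 4.34 on the log2 scale (edgeR adjusted p = 3.9e-06), and reads of such copies cannot be assigned with certainty. Against the WT change, it was more negative for 5 of 13 blood genes, and for 1 to 3 without any 1 of the libraries other than WT day 10 replicate 4. Of 12 neural genes tested 3 rose and 4 fell (median 0.05, and -0.36 with the GC trend removed), and of 13 interferon-stimulated genes 7 rose and 2 fell (median 1.04, and 0.36 with the GC trend removed).

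The 12 genes with the largest rise were chosen by size among called genes with non-overlapping libraries and at least 5 CPM in the higher group. Since all but 4 of them had at most 3 counts in every day 6 library, their rise is given as a lower bound against that limit. TKTL1, a transketolase-like protein, was at 0 and 0 CPM at day 6 and 34.97 and 34.2 CPM at day 10, at least 255-fold higher at day 10. SERPIND1, the thrombin inhibitor heparin cofactor II, was at 0 and 0 CPM at day 6 and 22.98 and 29.99 CPM at day 10, at least 195-fold higher. The bound was 155-fold for SPINK1 (a trypsin inhibitor), 90.97-fold for DUOX2 (a peroxide-generating oxidase), 89.1-fold for ACSL5 (a fatty acid ligase), 69.1-fold for AFM (afamin), 67.8-fold for SERPINA7 (thyroxine-binding globulin) and 51.1-fold for ITIH2 (an inter-alpha-trypsin inhibitor chain). AHSG, the serum protein fetuin-A, rose from 0.3995 and 0.295 CPM at day 6 to 214 and 265 CPM at day 10 (log2 fold change 9.28, SE 0.32, edgeR adjusted p = 1.1e-10) and APOC3, an apolipoprotein, from 0.1498 and 0.443 CPM at day 6 to 108 and 130.4 CPM at day 10 (log2 fold change 9.12, SE 0.30, edgeR adjusted p = 3.3e-10). APOA4 and SERPINA1, given above, complete the 12. In WT cells AHSG, APOA4 and APOC3 rose too, with log2 fold changes of 9.36, 9.88 and 6.65 (edgeR adjusted p at most 0.00013). TKTL1, SERPIND1, ITIH2, SPINK1, SERPINA1 and DUOX2 also rose in WT cells (edgeR adjusted p at most 0.002413). AFM, SERPINA7 and ACSL5 had too few counts there for a test. Of the 12, SERPINA1 alone had a difference from WT cells at 5% FDR (2.50, edgeR adjusted p = 0.028). For SERPIND1, AFM, SERPINA7 and ITIH2, at 0 CPM at day 6 in both lines, that test had no usable standard error. Each of the 12 also rose in NKX2-5 shRNA cells at 5% FDR. Of the 617 called rises, 201 had at most 3 counts in every day 6 library. All 617 had day 10 libraries that did not overlap those of day 6. The calling threshold nearly requires this, so that count adds no support.

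**Figure D3:**
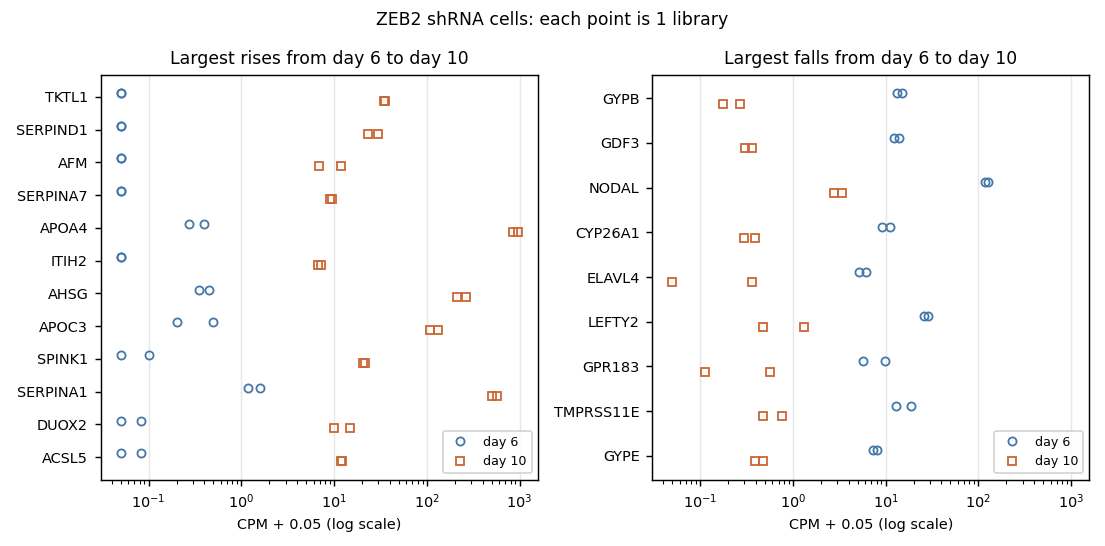
The 12 genes with the largest rise (left) and 9 of the 12 with the largest fall (right) from day 6 to day 10 in ZEB2 shRNA cells, with CPM plus 0.05 on a log axis. Each circle is 1 day 6 library and each square 1 day 10 library. Genes were chosen so that libraries of the compared days do not overlap, so circles and squares are apart in every row.

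Largest among the falls were GYPB, GDF3, NODAL and CYP26A1, given above. ELAVL4, a neuronal RNA-binding protein, went from 6.03 and 5.09 CPM at day 6 to 0.309 and 0 CPM at day 10 (log2 fold change -4.99, SE 0.59, edgeR adjusted p = 6.4e-06). GPR183, an oxysterol receptor, went from 9.74 and 5.68 CPM at day 6 to 0.0618 and 0.512 CPM at day 10 (log2 fold change -4.93, SE 0.59, edgeR adjusted p = 1.6e-05). Without day 10 replicate 3 the falls were -11.07 for ELAVL4, whose remaining day 10 library holds 0 counts, and -3.97 for GPR183, and without replicate 4 they were -4.21 and -6.97. The protease TMPRSS11E fell by 4.78 on the log2 scale (edgeR adjusted p = 2.6e-08). LEFTY2 and GYPE, given above, belong to the 12 as well. Of the 111 called falls, 56 were at or under the limit of 3 counts at day 10. Libraries did not overlap for 110 of them, which the calling threshold nearly requires as well.

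The 8 genes with the most positive difference from WT were chosen for that difference, so their values are a description. NECTIN4 was at 0.716 and 0.737 CPM at day 6 and 9.33 and 10.4 CPM at day 10 in ZEB2 shRNA cells and at 0.737 and 0.553 CPM at day 6 and 0 and 0 CPM at day 10 in WT cells. TFAP2A, a transcription factor of surface ectoderm and neural crest, was at 7.39 and 6.19 CPM at day 6 and 29.4 and 19.8 CPM at day 10 and in WT cells at 3.900 and 5.29 CPM at day 6 and 0.103 and 0 CPM at day 10. Its relative TFAP2B was at 1.01 and 0.369 CPM at day 6 and 8.53 and 5.55 CPM at day 10 and in WT cells at 0.997 and 0.385 CPM at day 6 and 0 and 0 CPM at day 10. Both were higher at day 10 than at day 6 in ZEB2 shRNA cells, and at or near 0 at day 10 in WT cells. GABRP, the pi subunit of a GABA receptor found in epithelia, was at 288 and 339 CPM at day 6 and 734 and 655 CPM at day 10 and in WT cells at 74.2 and 77.8 CPM at day 6 and 1.701 and 2.58 CPM at day 10. VGLL1, a cofactor of TEAD proteins, was at 0.333 and 0.5899 CPM at day 6 and 6.33 and 4.82 CPM at day 10 and in WT cells at 0.5201 and 0.241 CPM at day 6 and 0 and 0 CPM at day 10. ISM1, the secreted protein isthmin, was at 1.42 and 0.885 CPM at day 6 and 4.67 and 7.17 CPM at day 10 and in WT cells at 0.7801 and 0.6496 CPM at day 6 and 0 and 0 CPM at day 10. GABRG3, another GABA receptor subunit, and IGFN1, a muscle protein, were at 7.14 and 5.59 CPM and at 5.47 and 6.95 CPM in the ZEB2 shRNA day 10 libraries, and both were at 0 in the WT day 10 libraries. Their difference did not pass edgeR's test without single libraries. For GABRG3 these were each of the 4 ZEB2 shRNA libraries, WT day 6 replicate 1 and WT day 10 replicate 3 (adjusted p from 0.052 to 1). For IGFN1 these were ZEB2 shRNA day 10 replicate 4 and each WT day 6 library (adjusted p from 0.057 to 0.070). For NECTIN4, TFAP2B, VGLL1, ISM1, GABRG3 and IGFN1, with WT day 10 libraries at 0, the fitted difference depends on the prior count and is no bound.

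At the negative end, LEFTY2, GYPB and GYPE are given above. PLCXD3, a phospholipase-like protein, was at 27.3 and 35.9 CPM at day 6 and 12.5 and 12.9 CPM at day 10 in ZEB2 shRNA cells and at 7.19 and 17.7 CPM at day 6 and 134 and 105 CPM at day 10 in WT cells. NELL2, a secreted glycoprotein of neurons, was at 3.696 and 1.77 CPM at day 6 and 0.278 and 0.341 CPM at day 10 and in WT cells at 9.23 and 5.12 CPM at day 6 and 21.03 and 11.7 CPM at day 10. NR0B1, the nuclear receptor DAX1, was at 11.7 and 10.2 CPM at day 6 and 0.741 and 0.341 CPM at day 10 and in WT cells at 0.217 and 0.361 CPM at day 6 and 0.515 and 0.645 CPM at day 10. HBG1 and HBG2, near-identical fetal globins whose reads cannot be assigned with certainty, overlapped between days in ZEB2 shRNA cells, at 0.882 and 0.737 CPM at day 6 and 0.741 and 0.768 CPM at day 10 for HBG1. In WT cells HBG1 was at 0.303 and 0.1203 CPM at day 6 and 24.8 and 2.796 CPM at day 10, with 1 of the WT day 10 libraries far above the other. The difference was -6.19 (adjusted p = 0.080) for HBG1 without ZEB2 shRNA day 6 replicate 1, and that of HBG2 did not pass the test without any 1 library other than ZEB2 shRNA day 10 replicate 4 and WT day 10 replicate 4 (adjusted p from 0.053 to 0.087).

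For NKX2-5 shRNA cells, the other knockdown analysed at both days, the same days were compared. The ZEB2 shRNA change was more positive than theirs for 873 of 17233 genes (5.07%) and more negative for 986 (5.72%) at 5% FDR of the difference. This comparison uses the same ZEB2 shRNA libraries as the comparison with WT cells. The NKX2-5 shRNA libraries carry replicate numbers 1 and 2 on both days, whereas ZEB2 shRNA cells carry 3 and 4 at day 10. Any difference between the replicate sets therefore enters this comparison and cannot be told apart from the line. AFP was at 716 ± 37.7 CPM at day 6 and 25109.6 ± 7553 CPM at day 10 (mean ± SD, n = 2) in NKX2-5 shRNA cells, above the ZEB2 shRNA cells on both days (difference of the log2 changes 2.05, SE 0.40, edgeR adjusted p = 0.022). COL3A1 was at 119 ± 37.95 CPM at day 6 and 1856 ± 761 CPM at day 10 (difference of the log2 changes 1.29, SE 0.42, edgeR adjusted p = 0.091), a difference that did not pass the test. CDH1 was at 76.95 ± 4.83 CPM at day 6 and 224 ± 22.9 CPM at day 10 (difference of the log2 changes -0.09, SE 0.22, edgeR adjusted p = 0.81), a difference that did not pass the test either. ACTC1 went the other way from ZEB2 shRNA cells, at 152 ± 22.99 CPM at day 6 and 552 ± 249 CPM at day 10 (difference of the log2 changes -3.87, SE 0.47, edgeR adjusted p = 0.0048). NODAL was at 9.03 ± 2.42 CPM at day 6 and 2.62 ± 1.696 CPM at day 10 (difference of the log2 changes -3.49, SE 0.56, edgeR adjusted p = 0.012), and LEFTY2 was at 0.0484 ± 0.0165 CPM at day 6 and 0.901 ± 0.196 CPM at day 10 (difference of the log2 changes -8.96, SE 0.79, edgeR adjusted p = 0.0017), both low at day 6 already. SLN was at 1.28 ± 0.369 CPM at day 6 and 8.24 ± 6.46 CPM at day 10 (difference of the log2 changes 5.40, SE 1.02, edgeR adjusted p = 0.02) and IGF2 at 34.6 ± 5.68 CPM at day 6 and 4684 ± 2297 CPM at day 10 (difference of the log2 changes -2.94, SE 0.43, edgeR adjusted p = 0.0085). In these cells ZEB2 itself was at 20.5 ± 0.002404 CPM at day 6 and 104 ± 56.6 CPM at day 10 (difference of the log2 changes -2.34, SE 0.45, edgeR adjusted p = 0.02).

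The change from day 6 to day 10 moved with GC content. Genes were divided into 5 equal bins by the GC content of their longest annotated transcript, available for 17267 of 17750 genes tested (97.3%). The median log2 fold change in ZEB2 shRNA cells was -0.49 in the lowest bin (26.7% to 40.8% GC), 0.06 in the middle bin and 0.69 in the highest (58.1% to 86.4% GC). In WT cells it was -0.27, 0.00 and 0.38, and the median difference between the lines was -0.23, 0.01 and 0.22. After the trend was removed from each library, the medians in ZEB2 shRNA cells lay between 0.00 and 0.07 in all 5 bins, 548 genes were called higher and 117 lower, and the difference from WT was positive for 1459 and negative for 1144 genes. The part of GC content in the results was not tested otherwise. The hepatic list still rose in 16 of 16 cases, 19 of 21 extracellular matrix genes rose and 19 of 22 respiratory chain genes fell under this correction. Among genes named above, it moved the fold by over 1.5 times for COL1A1 (to a log2 fold change of 2.27), HSPG2 (1.54), MYH7B (5.81), MYBPC3 (1.18), HSPB7 (1.72), EMCN (1.85) and LEFTY1 (-4.48), each of which still passed the test, beside PLN, TRDN and IRX4.

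**Figure D4:**
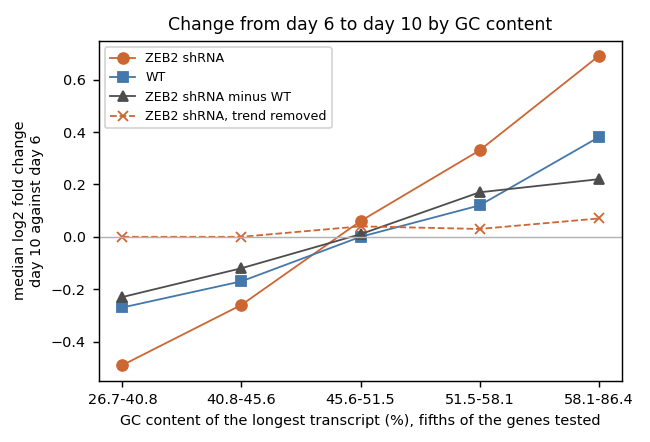
Median log2 fold change from day 6 to day 10 in each of 5 bins of transcript GC content, from lowest to highest, in ZEB2 shRNA cells, in WT cells, for the difference of the 2 lines and in ZEB2 shRNA cells after the trend was removed. The ZEB2 shRNA line climbs from -0.49 to 0.69 and the WT line from -0.27 to 0.38, and the corrected line lies between 0.00 and 0.07.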

How the data were processed

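RNA was sequenced from H1 ESCs under differentiation, and the values deposited by the authors are raw read counts per RefSeq transcript accession, whole numbers with no normalization. According to the study's methods, stranded reads of total RNA were mapped to hg19 (GRCh37) and counted per gene region with RSeQC, and the submitters' notes name TopHat2 2.0.14, Bowtie2 2.2.1.0 and SAMtools 0.1.19.0. Of 41627 accessions, 40285 (96.8%, with 97.1% of the counts) were matched to 23189 symbols by a RefSeq table, and each symbol was represented by its row of largest total, since rows of 1 gene share reads. Columns of 4 libraries (WT and ZEB2 shRNA day 10, replicates 1 and 2) were left out.

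Differential expression was computed with edgeR 4.0.16 in R 4.3.3: TMM factors, filterByExpr, the quasi-likelihood test, with p-values adjusted by Benjamini-Hochberg across every tested gene. The change over days used 8 ZEB2 shRNA libraries (days 0, 2, 6 and 10). Its difference from WT or NKX2-5 shRNA cells was an interaction term. Standard errors were obtained from the log2 fold change and the F statistic. A group with at most 3 counts in every library was taken as at the limit of detection, 0.136 CPM at day 6 and 0.110 CPM at day 10. Fits were tested on simulated data. Replicates of a group agreed at a Spearman correlation of 0.993 to 0.994 and differed by more than sampling noise (chi-square per gene at least 10.7). Positions are GENCODE's on GRCh37, and promoters are RefSeq's on GRCh38.p14.

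Named genes are ZEB2, the 12 largest rises and 12 largest falls among called genes with non-overlapping libraries and at least 5 CPM in the higher group, members of 37 lists (570 genes, 542 tested), and the 8 most positive and 8 most negative differences from WT. Of the 12 falls, 3 are not reported here. Members and lists were chosen with earlier results of these data known. Alternatives covered normalization, filter, tool (DESeq2 1.42.0 and edgeR's exact test), depth, row per symbol, thresholds, prior count and each library left out. The removal of a GC trend from each library (lowess, span 0.3) was added after the data were seen. Standard errors and SDs reflect the spread between these libraries, which may be technical. The lower bounds on folds rest on the limit of 3 counts and carry no interval.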

Additional observations from a re-analysis of the deposited data

Results flagged for a closer look

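The change from day 6 to day 10 differed between ZEB2 shRNA and WT cells for the genes below, by the interaction term of edgeR at 5% FDR. Values are the ZEB2 shRNA change minus the WT change on the log2 scale. No explanation was tested, and the calls that rest on single libraries are given with the genes above.

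Among matrix genes the difference was 4.41 for COL3A1, 5.42 for COL6A3, 6.06 for DCN, 3.63 for POSTN, 2.32 for COL1A1 and 1.12 for FN1. It was 3.26 for AFP, the fetal serum protein, and 2.38 for IGF2, the fetal growth factor. Epithelial genes stood at 2.11 for CDH1, 3.49 for GRHL2, 2.58 for RAB25 and 1.42 for KRT8. For endothelial genes it was 2.89 for CDH5 and 2.76 for EMCN, and for cell cycle genes 1.25 for MKI67 and 1.25 for TOP2A. MSX1, a homeobox gene, had 3.08.

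Among the muscle and heart genes named, the difference was 5.24 for SLN, -1.20 for TTN, -1.68 for TNNC1, -1.47 for ACTC1, -3.77 for FHL2, -2.24 for PLN, -1.50 for SLC8A1, -2.85 for IRX4 and -1.37 for TBX20. Among genes of energy metabolism it was -1.68 for PPARGC1A, -1.32 for ENO3, -1.03 for UQCRC2 and -1.26 for ATP5MC1. NODAL had -3.43 and its inhibitor LEFTY2 -8.47.

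The other genes were chosen for the size of their difference. Upward these were 10.91 for NECTIN4, 10.34 for TFAP2B, 10.09 for VGLL1, 9.59 for ISM1, 9.59 for GABRG3, 9.46 for IGFN1, 7.80 for TFAP2A and 6.34 for GABRP, of which all but TFAP2A and GABRP depend on the prior count because both WT day 10 libraries hold 0 counts. Downward these were -6.35 for HBG1, -5.01 for HBG2, -5.19 for NR0B1, -4.90 for GYPB, -4.84 for GYPE, -4.59 for PLCXD3 and -4.47 for NELL2.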

How the results depend on the processing

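No paired analysis was possible in ZEB2 shRNA or WT cells because their compared days share no replicate number (1 and 2 at day 6, 3 and 4 at day 10). The main fit called 617 genes higher and 111 lower, and DESeq2 called 511 and 99. Fewer were called in each direction with any 1 library left out. These are totals of each fit, and their overlap with the main calls was not counted. At 4-fold and 1% FDR the counts were 1303 and 311, and at 5% FDR with no fold threshold 5738 and 5499. The difference from WT was positive for 1362 and negative for 1125 genes, for 679 to 1876 and 417 to 1555 with 1 library left out, for 137 and 30 at 8-fold and 1% FDR, and for 1981 and 708 without TMM factors. At 5% FDR 6723 genes rose and 4432 fell without TMM factors. Leaving out TMM factors moved the median over all genes from 0.03 to 0.20 in ZEB2 shRNA cells and to 0.18 for the difference. Medians of the change turned sign under at least 1 alternative for the thick filament, calcium handling, cardiac transcription factor, muscle energy, epithelial, mesenchymal, epicardial, endothelial, blood, neural, Notch, retinoic acid, cell cycle inhibitor and p53 lists. The comparison with NKX2-5 shRNA cells was run with 1 setting.

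For 96 single genes, 1423 of 1440 values of the change kept their direction and side of the threshold under the alternatives. For the difference, 774 of 799 values did so, in 47 genes. Under the alternative prior count the adjusted p was that of the main fit, so the side of the threshold could not change there. The 47 genes were flagged because their difference passed the FDR threshold, so their count describes chosen genes and not all genes. ZEB2 reversed to 0.42 with the GC trend removed and to 0.14 without TMM factors. TTN reversed to 0.06 with the GC trend removed, 0.04 without TMM factors and 0.03 without ZEB2 shRNA day 10 replicate 4, and was -0.38 without day 10 replicate 3. MYH6 reversed to -0.41 with the GC trend removed, -0.01 without a filter, -0.41 without day 10 replicate 3 and -0.08 without day 6 replicate 2, and was 0.33 without day 10 replicate 4. The cause was not tested. In addition to the losses given with each gene, thinning to the shallowest library took the difference of SLN to 3.80 (edgeR adjusted p = 0.21). Thinning also took that of IGFN1 to 7.38 (edgeR adjusted p = 0.16) and that of GABRG3 to 8.88 (adjusted p = 0.052). DESeq2 gave GABRG3 a difference of 8.84 (adjusted p = 0.2). In 1 fit of all libraries the change of GRHL2 was 0.40 (edgeR adjusted p = 0.068). With 1 library left out, the lone library of a group is assumed to vary like those of the other groups.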
